A study of Marmota monax with 203 samples.

Results

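Among the liver biopsies of placebo-treated woodchucks that were chronic carriers of the woodchuck hepatitis virus (WHV), 34 carried skeletal muscle transcripts, in all but 1 of them beside a liver transcriptome. These biopsies were selected on 1 gene, MYH2, the myosin heavy chain of fast type IIA muscle fibres. Of 81 placebo biopsies taken at study weeks -3, 0, 3, 7, 11, 15, 19 and 23, the 34 with a MYH2 level of at least 100 CPM (reads scaled to a library total of 1000000) are called MYH2-high, the 43 with less than 5 CPM MYH2-low, and 4 fell in between. The series as a whole holds 164 biopsies. All 12 placebo animals were adults of either sex that had carried WHV since infection as newborns, and they received the vehicle alone by subcutaneous injection until week 15. The other arm received recombinant woodchuck interferon-α (wIFN-α), at a lower and then a higher dose until week 15. It gave 68 biopsies from 11 animals, which the choice of placebo biopsies did not use. Of these biopsies, 11 were taken at week -3, before the first dose, and 6 each at weeks 19 and 23, after the last one. Each library was made from poly(A) RNA of a whole biopsy, so that fewer cells of a type and less RNA per cell cannot be told apart.

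Skeletal muscle fibres are built of sarcomeres, in which thick filaments of myosin pull on thin filaments of actin, tropomyosin and troponin between Z-discs. Contraction is switched on by calcium released from the sarcoplasmic reticulum, and it is fuelled by creatine phosphate, glycogen and fatty acids through muscle forms of enzymes that hepatocytes carry in liver forms. Slow fibres use the heavy chain MYH7, and fast fibres MYH1, MYH2 or MYH4. Liver has no skeletal muscle of its own. The abdominal wall and the diaphragm, which lie next to it, do, together with connective tissue, fat, vessels and a mesothelial lining.

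MYH2 ranged from 101 to 18409 CPM, with a median of 797, in the MYH2-high biopsies and from 0.0589 to 4.22 CPM, with a median of 0.454, in the MYH2-low ones. Just inside the upper limit lay F1019 at week 7 with 101 CPM, and just outside it F1024 at week 0 with 77.7 CPM. The other biopsies between the limits were F1015 at week 7 with 63.3 CPM, F1019 at week -3 with 35.5 CPM and M1001 at week 7 with 30.8 CPM. The highest values under the lower limit were 4.22 CPM in M1001 at week -3 and 4.00 CPM in M1009 at week 23. Between the limits, therefore, lay a gap in which few biopsies fell, as the plot of MYH2 by animal shows. In all 14 placebo biopsies that were sequenced more than once, every run fell in the same class.

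**Figure D1:**
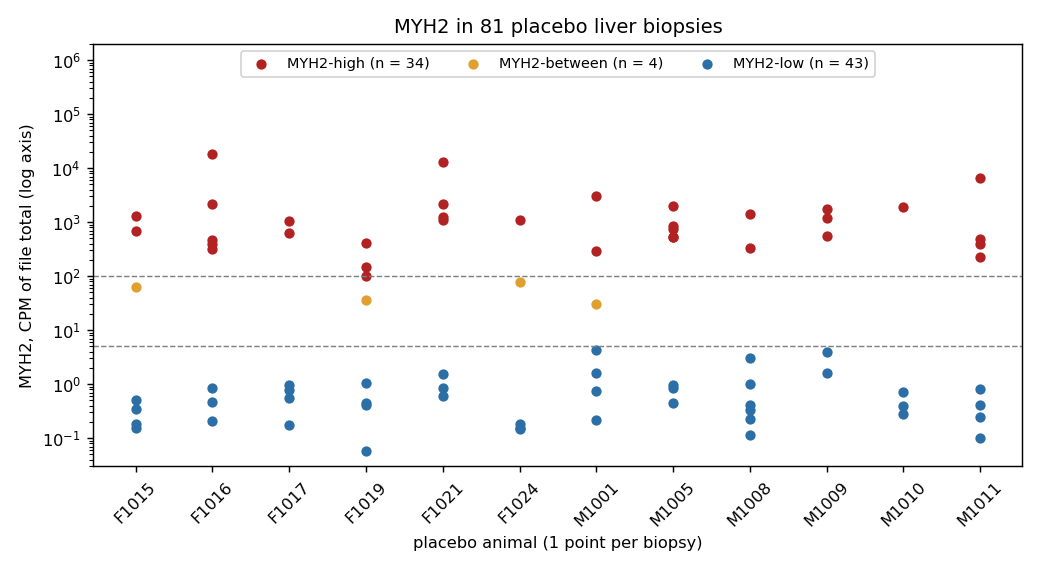
MYH2 in CPM of all reads of the file (log axis) in each of the 81 placebo biopsies, by animal; points are biopsies and dashed lines mark the limits of 100 and 5 CPM. Every one of the 12 animals had biopsies above and below the limits.

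Every one of the 12 placebo animals gave both kinds of biopsy. F1016 and M1005 had the most MYH2-high biopsies, 5 of 8 each, while F1024 with 1 of 5 and M1010 with 1 of 4 had the fewest. In the same animal the class changed from week to week. M1005, for example, was high at weeks -3, 3, 7, 11 and 19 and low at weeks 0, 15 and 23. All 6 females and all 6 males had biopsies of both kinds. By biopsies, 17 of 41 from females and 17 of 40 from males were high.

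Weeks differed in how many biopsies were MYH2-high. There were 4 of 12 at week -3, 5 of 12 at week 0, 9 of 12 at week 3, 4 of 12 at week 7, 8 of 10 at week 11, 3 of 9 at week 15, 1 of 5 at week 19 and 0 of 9 at week 23. None of the 6 wIFN-α biopsies of week 23 was high either, and in that arm week -3 had the most, with 7 of 11. Because of this imbalance the week was a term of each gene test. All 7 sequencing lanes held both kinds of placebo biopsy. Biopsies sequenced more than once are counted under the lane of their deepest run, although their counts sum runs from different lanes.

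The skeletal muscle lists hold 128 genes, of which 123 are in the files. They took 0.307% to 22.8% of the reads on genes in MYH2-high biopsies, with a median of 1.17%, and 0.130% to 0.378%, with a median of 0.216%, in MYH2-low ones. The 4 biopsies between the limits had 0.165% to 0.328%. The ranges of the classes thus overlapped at the bottom. In MYH2-low biopsies ACACB, an enzyme of fatty acid metabolism, had the highest median level of the listed muscle genes. The plot of muscle read share by week shows the largest shares at weeks -3 and 3. They belonged to F1016 at week -3, with 22.8%, and F1021 at week 3, with 17.6%, and were followed by 8.19% in M1011 at week 3.

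**Figure D2:**
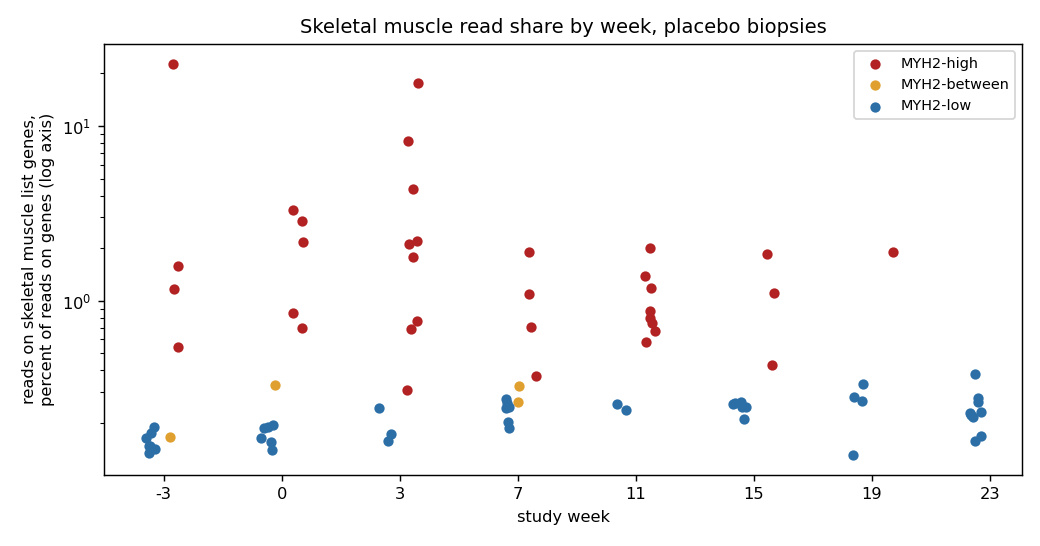
Reads on genes of the 6 skeletal muscle lists as percent of all reads on genes (log axis) in each placebo biopsy, by study week; points are biopsies, coloured by MYH2 class and spread sideways. MYH2-high biopsies reach 22.8%, and no biopsy of week 23 is MYH2-high.

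The week -3 biopsy of F1016 stood apart and went against its label as liver. Albumin (ALB), the main plasma protein made by hepatocytes, had 93.8 CPM there, against 8539 to 88528 CPM in the other 33 MYH2-high biopsies. The 20 listed secreted hepatocyte genes together took 0.0978% of its reads, and WHV had 86.4 CPM, where MYH2-high biopsies had a median of 21559. It also had the highest adiponectin (ADIPOQ) of the placebo biopsies, at 415 CPM, and the highest β-globin (HBB), at 3177 CPM. Where it changes how many genes of a list were called, that is said beside the list.

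ACTA1, the skeletal muscle α-actin of the thin filament, ranged from 112 to 16777 CPM (median 856) in MYH2-high and from 9.64 to 26.9 CPM (median 17.8) in MYH2-low biopsies. All MYH2-high biopsies lay above all MYH2-low ones, and so did the 4 in between, at 40.7 to 124 CPM. CKM, the muscle creatine kinase that regenerates ATP from creatine phosphate, ranged from 151 to 14153 CPM (median 645) against 67.9 to 392 CPM (median 175). CKM therefore overlapped, and 27 of 34 MYH2-high biopsies lay above every MYH2-low one. The log2 fold changes, adjusted for week and animal, were 5.93 ± 0.39 (SE) for ACTA1 and 2.30 ± 0.30 for CKM.

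In the comparison of all genes, 34 against 43 biopsies with week as a factor and animal as a block, 1109 of 15069 genes tested were called higher (7.36%) and 46 lower (0.305%). Calls required a fold change above 1.5 and a Benjamini-Hochberg adjusted p below 0.05 in edgeR's quasi-likelihood test. The median log2 fold change of all genes was -0.04. Of the higher calls, 222 had a log2 fold change above 3 and 376 one under 1. The skeletal muscle lists held 108 of them, other lists 64, and 937 were on no list. Without F1016 at week -3, 929 genes were called higher, 921 of which were among the 1109. As the biopsies were chosen by a skeletal muscle gene, a call of a muscle gene below only describes that it passed these thresholds and is not a test, in either arm. MYH2 itself is counted among the thick filament and fast fibre genes.

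Thick filament genes had the highest median change of the muscle lists. All 16 tested of 17 were called higher, with a median log2 fold change of 9.49, and in 13 the lowest MYH2-high biopsy lay above the highest MYH2-low one. Over all genes tested that held for 96 (0.637%), of which 59 were on a muscle list. MYH1, the heavy chain of fast type IIX fibres, ranged from 118 to 31442 CPM (median 872) in MYH2-high and from 0 to 9.64 CPM (median 0.537) in MYH2-low biopsies, a log2 fold change of 10.93 ± 0.64. MYBPC1, a myosin-binding protein, was 10.85 ± 0.56 higher on that scale. Smaller changes belonged to the M-band protein MYOM1, at 1.27 ± 0.34, and MYBPC2, at 1.65 ± 0.30, whose medians in MYH2-low biopsies were 19.8 and 41.9 CPM. MYH4 was too low to be tested, with 0 to 16.5 CPM in MYH2-high biopsies and 0 in every MYH2-low one.

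Thin filament genes were called higher in 13 of 13 tested (of 15), with a median of 6.32. Troponin C of fast fibres, TNNC2, had 20.2 to 3355 CPM (median 159) against 0 to 1.16 CPM (median 0.188), a log2 fold change of 9.92 ± 0.50. Slow and cardiac troponin C, TNNC1, had 9.10 to 1045 CPM against 3.80 to 15.3 CPM, and its change of 3.44 ± 0.38 was the lowest of the list. Z-disc genes were called in 20 of 20, with a median of 6.59. SMPX, a small stretch-responsive muscle protein, and XIRP1, an actin-binding protein, were highest, at 10.87 ± 0.54 and 10.66 ± 0.63. MYOZ3, at 0.84 ± 0.21, and the filamin FLNC, at 1.36 ± 0.24, were lowest, and their medians in MYH2-low biopsies were 23.4 and 102 CPM.

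Calcium handling and excitation genes were called in 19 of 19 tested (of 21), with a median of 5.41. CACNA1S, the voltage sensor of the transverse tubule, had 5.52 to 1367 CPM (median 50.3) against 0 to 0.307 CPM (median 0.0457). ATP2A1, the calcium pump of fast fibres, had 40.5 to 8405 CPM (median 295) against 8.88 to 17.2 CPM (median 12.8). Neither gene overlapped between the classes. The sodium channel SCN4A was 2.20 ± 0.30 and the potassium channel KCNA7 0.92 ± 0.21 higher on the log2 scale, the least of this list.

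Energy genes were called in 22 of 23 tested (of 25), with a lower median of 2.83. PPP1R3A, which anchors protein phosphatase to muscle glycogen, was 11.25 ± 0.56 higher and UCP3, a mitochondrial carrier of muscle, 9.93 ± 0.77 higher on the log2 scale. ACACB, the mitochondrial acetyl-CoA carboxylase, was not called. It had 115 to 1643 CPM (median 591) against 180 to 2016 CPM (median 904), at a log2 fold change of -0.24 ± 0.19. PPP1R1A and SLC2A4 were not called without F1016 at week -3.

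Regulators and membrane proteins were called in 18 of 24 tested (of 30), with a median of 2.99. TRIM54, which binds microtubules and the sarcomere, was 9.68 ± 0.51 higher, and the caveolin CAV3 8.12 ± 0.53 higher. Dystrophin (DMD) had 45.8 to 109 CPM against 46.6 to 84.8 CPM, at a log2 fold change of -0.01 ± 0.07, and HFE2, the iron regulator hemojuvelin of liver and muscle, was at 0.21 ± 0.15. UNC45B was not called without F1016 at week -3. MYOD1, MYOG, MYF5, PAX7, MSTN and MUSK did not pass the filter on low counts.

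**Figure D3:**
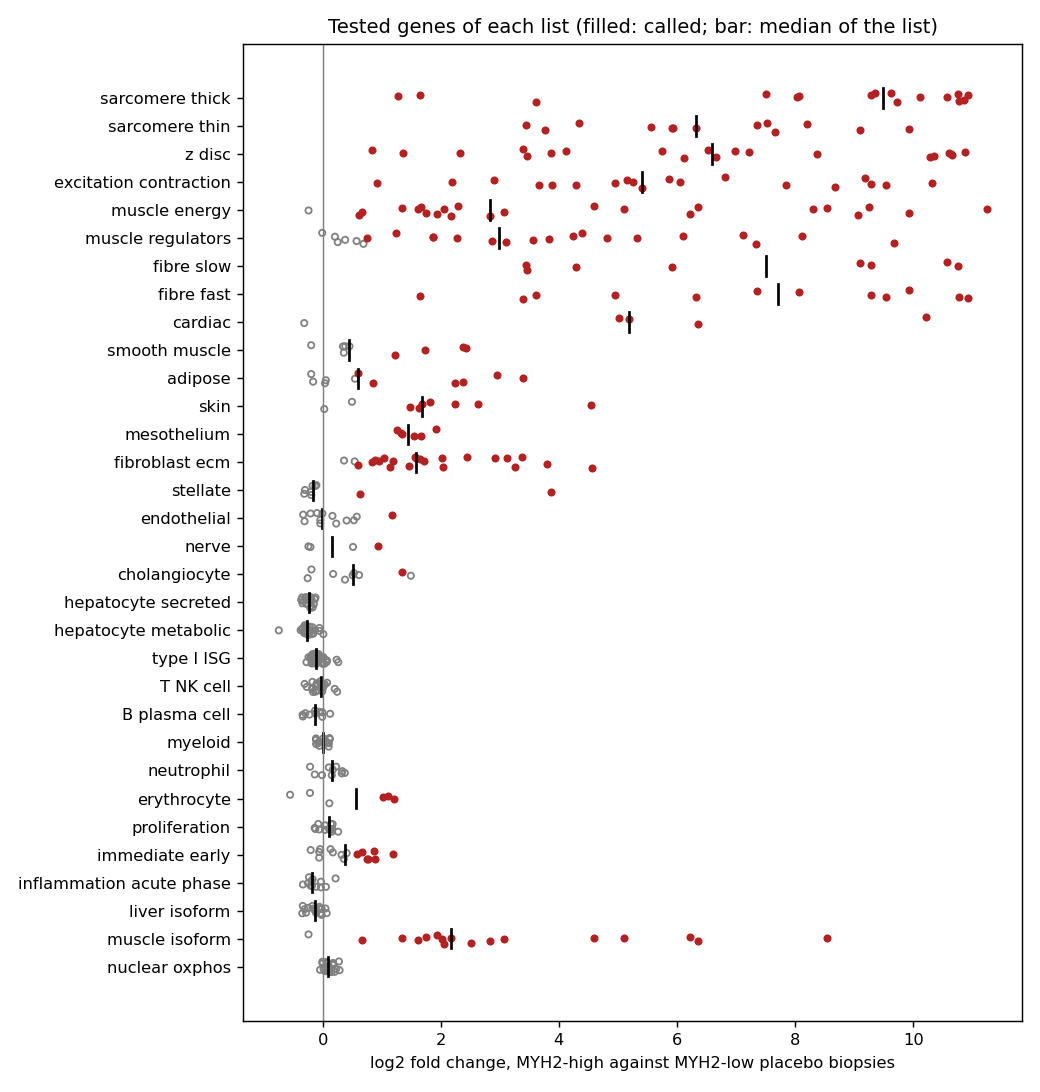
Log2 fold change of MYH2-high against MYH2-low placebo biopsies for each tested gene of the 32 lists; filled points were called, open points were not, and the bar is the median of the list. The 6 muscle lists reach 11.25, while hepatocyte, interferon-stimulated and leukocyte genes lie around 0.

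Fast and slow fibre genes were high together. Per kilobase of transcript, MYH1, MYH2 and MYH7 made up medians of 46.1%, 35.3% and 17.1% of their sum over the 34 MYH2-high biopsies. The share of slow MYH7 ran from 7.39% in F1017 at week 3 to 28.1% in M1010 at week 0, and the share of MYH1 from 21.6% in M1005 at week 19 to 64.2% in F1016 at week 3. No MYH2-high biopsy was thus of a single heavy chain. TNNT1, the slow troponin T, made up 20.6% to 58.3% (median 44.5%) of TNNT1 and TNNT3 per kilobase, and TNNI1, the slow troponin I, 1.55% to 9.81% (median 4.07%) of TNNI1 and TNNI2. The assembled TNNI1 transcript is 7.35 kb long against 1.08 kb for TNNI2, so this share depends on the assembly. In the 22 MYH2-high wIFN-α biopsies the share of MYH7 ran from 7.08% to 25.9%, with a median of 19.5%. Myosin heavy chains are alike in sequence, so reads may be split between them. All 8 slow fibre genes and all 12 tested of 13 fast fibre genes were called, with medians of 7.50 and 7.71.

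Cardiac genes were called in 4 of 5 tested (of 11). MYH6, the cardiac α heavy chain, which shares much sequence with MYH7, had 0.604 to 148 CPM (median 5.55) against 0 to 0.0849 CPM, and its log2 fold change was 10.21 ± 0.53. MYL4, an atrial and embryonic light chain, was 6.36 ± 0.44 higher. RYR2, the cardiac calcium release channel, had 5.80 to 28.4 CPM against 10.4 to 42.1 CPM, and its log2 fold change was -0.31 ± 0.08, within the fold limit.

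Muscle forms of enzymes were higher and their liver partners were not called. Of 17 pairs, the muscle form was called higher in 16 and the liver form in 0, with median log2 fold changes of 2.17 and -0.13 (15 muscle forms without F1016 at week -3). Glycogen phosphorylase is an example. The muscle form PYGM had 26.0 to 5337 CPM (median 213) in MYH2-high and 4.13 to 16.0 CPM (median 7.89) in MYH2-low biopsies, while the liver form PYGL had 369 to 1103 CPM (median 577) and 337 to 1170 CPM (median 581). Per kilobase, PYGM made up a median of 18.6% of both in MYH2-high and 0.792% in MYH2-low biopsies. Muscle phosphofructokinase PFKM made up 83.4% and 26.0% of PFKM and PFKL, and the mitochondrial subunit COX7A1 30.5% and 0.875% of COX7A1 and COX7A2. Fructose bisphosphatase FBP2 made up 1.82% and 0.0163% beside the liver form FBP1. The exception was ACACB. Liver forms had log2 fold changes from -0.34 for CPT1A, which takes fatty acids into mitochondria, to 0.07 for AMPD2. Without the fold limit, 2 of the 17 were lower at an edgeR adjusted p under 0.05, against 11.9% of all genes. With it, 7.36% of all genes were called higher and 0.305% lower. Nuclear genes of oxidative phosphorylation, which liver and muscle share, were called in 0 of 24, with a median of 0.09.

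Beyond the lists, the genes with the highest changes were C10orf71, DHRS7C, PPP1R27, ANKRD1 and IGFN1, with log2 fold changes from 11.08 ± 0.55 for C10orf71 to 10.46 ± 0.75 for IGFN1. DHRS7C, an enzyme of the sarcoplasmic reticulum, had 1.65 to 226 CPM (median 12.2) against 0 to 0.164 CPM. ANKRD1 is a stress-responsive muscle protein. DUSP27, DUSP13, LOC100507537, IP6K3 and HSPB3 followed at 9.78 to 8.82. EEF1A2, the translation elongation factor of muscle and neurons, had 7.37 to 2473 CPM (median 64.3) in MYH2-high and 0.0302 to 1.77 CPM (median 0.206) in MYH2-low biopsies, a change of 8.78 ± 0.45.

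Genes of connective tissue rose in the MYH2-high biopsies. Of 23 fibroblast and matrix genes, 21 were called higher and 0 lower, with a median log2 fold change of 1.58 (20 without F1016 at week -3). Over all genes tested, 7.36% were called higher and 0.305% lower. The same shares stand beside the counts of fat cell, mesothelial, smooth muscle, skin, erythrocyte and immediate early genes below. COL1A1, a chain of type I collagen, ranged from 34.5 to 4574 CPM (median 280) in MYH2-high and from 13.6 to 255 CPM (median 23.5) in MYH2-low biopsies. The classes overlapped, with 19 of 34 above every MYH2-low biopsy, and the log2 fold change was 3.37 ± 0.45 (edgeR adjusted p = 1.73e-08). Dermatopontin (DPT), a matrix protein, had 0.559 to 67.3 CPM (median 6.31) against 0 to 3.02 CPM (median 0.180), and was 4.56 ± 0.46 higher (edgeR adjusted p = 3.05e-12). OGN, a small leucine-rich proteoglycan, was 3.79 ± 0.45 higher (edgeR adjusted p = 8.48e-10). THY1 and PDGFRB, markers of mesenchymal cells, were not called, at 0.54 ± 0.13 and 0.36 ± 0.12. COL1A1 was higher in MYH2-high biopsies within each of the 7 lanes, by 1.63 to 4.98 on the log2(CPM + 1) scale.

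Fat cell genes were called in 6 of 11 (5 without F1016 at week -3), with a median of 0.61. Perilipin 1 (PLIN1), which coats the lipid droplet of adipocytes, had 0.402 to 284 CPM (median 11.8) against 0.0822 to 32.98 CPM (median 0.479), a log2 fold change of 3.40 ± 0.50 (edgeR adjusted p = 2.65e-07). ADIPOQ, the hormone of adipocytes, had 1.58 to 415 CPM (median 27.3) against 0.777 to 62.8 CPM (median 1.67), at 2.95 ± 0.45 (edgeR adjusted p = 4.61e-07). For both, 4 of 34 MYH2-high biopsies lay above every MYH2-low one, and the highest MYH2-low biopsy was M1011 at week 7. PCK1, which hepatocytes express, and CIDEA were not called, at -0.19 ± 0.25 and -0.16 ± 0.08.

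Mesothelial genes, of the lining of the abdominal cavity, were called in 6 of 6 tested (of 9), with a median of 1.44. UPK3B had 0.277 to 7.29 CPM (median 1.72) against 0 to 18.6 CPM (median 0.181), at 1.92 ± 0.40 (edgeR adjusted p = 0.000211). Mesothelin (MSLN) was 1.66 ± 0.38 higher (edgeR adjusted p = 0.0009). The single highest UPK3B level was in a MYH2-low biopsy. Smooth muscle genes were called in 4 of 9, and LMOD1 and SYNM were highest, at 2.42 ± 0.38 and 2.38 ± 0.34 (edgeR adjusted p = 1.1e-06 and 1.41e-07). Genes of this list such as SYNM may also be made by skeletal muscle fibres, whose RNA cannot be told apart here. These calls are therefore no test of smooth muscle. MYLK, the myosin light chain kinase, had a log2 fold change of -0.19 ± 0.05.

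Keratins of skin were high in a minority of the biopsies. Of 9 tested genes of the skin list (of 16), 7 were called higher, with a median of 1.69. KRT1, a keratin of the upper epidermis, had 0.238 to 2639 CPM but a median of 0.621 in MYH2-high biopsies, against 0.150 to 2077 CPM and a median of 0.390 in MYH2-low ones, at 4.54 ± 1.44 (edgeR adjusted p = 0.0168). At least 10 CPM were found in 8 of 34 MYH2-high biopsies, from 5 animals, and in 3 of 43 MYH2-low biopsies, from 3 animals. The highest were M1008 at week 0 among the high and M1009 at week 7 among the low. Without these 11 biopsies 0 of the 9 genes were called, with edgeR and the same thresholds. As they were picked by KRT1, a gene of this list, that loss of calls follows largely from the picking. Without the animal block, or with the lane as a factor, 1 of the 9 genes was called. Over all genes, 1097 were called higher without the 11 biopsies.

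**Figure D4:**
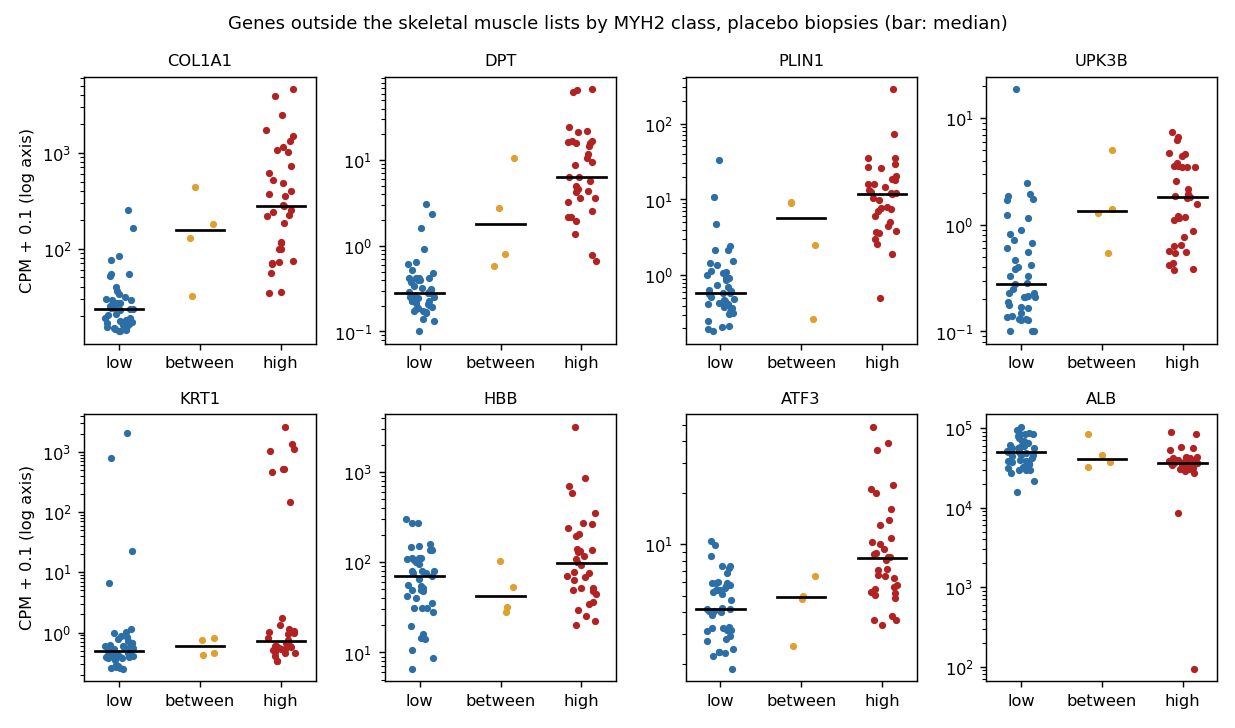
CPM + 0.1 (log axis) of 8 genes in MYH2-low, between and MYH2-high placebo biopsies; points are biopsies, spread sideways, and bars are medians. COL1A1, DPT and PLIN1 shift upward in MYH2-high biopsies, KRT1 is high in a few biopsies of both classes, and ALB overlaps apart from F1016 at week -3 and F1021 at week 3.

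Vessel, nerve and bile duct lists had single calls, a share near the 7.36% of all genes for the endothelial and cholangiocyte lists. VWF, the von Willebrand factor of large-vessel endothelium, was the only endothelial gene called of 13 tested. It had 9.82 to 130 CPM (median 24.6) against 5.75 to 24.2 CPM (median 12.0), at 1.18 ± 0.19 (edgeR adjusted p = 2.09e-06). CLEC4G, a lectin of liver sinusoids, had a log2 fold change of -0.33 ± 0.14. Among 4 nerve genes tested PMP22, a myelin protein, was called, at 0.94 ± 0.15 (edgeR adjusted p = 1.92e-06). The water channel AQP1, of bile ducts and capillaries, was the one cholangiocyte gene called of 9 (3 without F1016 at week -3), at 1.35 ± 0.20 (edgeR adjusted p = 4.33e-07). Of 9 stellate cell genes the intermediate filament DES, which is also on the Z-disc list, and ECM1 were called, and ECM1 was not without F1016 at week -3. The endothelial, nerve, cholangiocyte and stellate lists had medians of -0.0032, 0.15, 0.51 and -0.17.

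Hemoglobin genes passed the thresholds, but not under all alternatives. Of 6 erythrocyte genes tested, HBB, HBA1 and HBA2 were called, at 1.10 ± 0.39, 1.02 ± 0.39 and 1.21 ± 0.37 (edgeR adjusted p = 0.0309, 0.0465 and 0.0124). HBB had 20.2 to 3177 CPM (median 97.1) against 6.49 to 301 CPM (median 69.7), and it was higher in 5 of 7 lanes (4 without F1016 at week -3). Without F1016 at week -3, with the lane as a factor or with a limit of 50 CPM only 1 of the 6 genes was called, and without the week term 0 were. HBA1 lost its call in 15 alternatives and HBB in 10, among them leaving out F1015, F1016, F1021, F1024 or M1005. HBA1 and HBA2 are near-identical, and reads may be split between them.

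Among immediate early genes, transcription factors switched on within minutes of a stimulus, 7 of 16 were called higher (5 without F1016 at week -3), with a median of 0.38. ATF3, a stress-induced factor, had 3.29 to 48.6 CPM (median 8.17) against 1.78 to 10.4 CPM (median 4.10), at 1.19 ± 0.23 (edgeR adjusted p = 9.53e-05), and was higher in 7 of 7 lanes. FOSB was 0.88 ± 0.31 higher (edgeR adjusted p = 0.0342). KLF4, JUN, EGR3, NR4A1 and EGR2, named after their values were seen, were called at 0.87 to 0.59. EGR2 lost its call in 19 alternatives, EGR3 and NR4A1 in 11 each and FOSB in 8. JUNB and IER2 were not, at -0.20 ± 0.15 and -0.06 ± 0.13. With the lane as a factor 3 of the 16 were called, and with a fold change above 2 only ATF3 was.

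Hepatocyte genes were called in 0 of 46, in either direction, but not under all alternatives. With limma-voom 1 secreted and 2 metabolic genes were called lower, and the medians of these lists were -0.58 and -0.53. With DESeq2 1 metabolic gene was called lower. Over all genes tested, 7.36% were called higher and 0.305% lower. The secreted proteins (20 genes) had log2 fold changes from -0.36 to -0.12, with a median of -0.24, all below 0, and the metabolic genes (26) a median of -0.27. ALB ranged from 93.8 to 88528 CPM (median 36601) in MYH2-high and from 15622 to 104664 CPM (median 49595) in MYH2-low biopsies, and its log2 fold change was -0.32 ± 0.22 (edgeR adjusted p = 0.289). In each of the 7 lanes its mean was lower in the MYH2-high biopsies, by -0.23 to -1.78 on the log2(CPM + 1) scale, and without F1016 at week -3 it was lower in 6 of 7, at -0.84 to 0.38. CYP7A1, the rate-limiting enzyme of bile acid synthesis, had the lowest change, -0.74 ± 0.29 (edgeR adjusted p = 0.0544), and it was called in 4 alternatives, among them DESeq2. Without the fold limit, 1790 genes (11.9%) were lower at an adjusted p under 0.05, among them 3 metabolic hepatocyte genes. The bile acid enzyme CYP27A1 was at -0.37 ± 0.14.

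Interferon-stimulated genes were called in 0 of 37 tested (of 38), with a median of -0.11. MX1, an antiviral GTPase, had 30.6 to 910 CPM (median 470) against 193 to 1160 CPM (median 628), at -0.27 ± 0.14 (edgeR adjusted p = 0.157). The highest change was 0.27 ± 0.12 for the ubiquitin-like ligase HERC5, and without the fold limit 3 of the 37 were lower at an adjusted p under 0.05. T and NK cell genes were called in 0 of 23, with CD3E, a chain of the T cell receptor complex, lowest at -0.30 ± 0.10 and granzyme A (GZMA) highest at 0.25 ± 0.18. The remaining lists had 0 calls among 10 B and plasma cell, 14 myeloid, 10 neutrophil, 14 proliferation and 12 acute phase genes tested, with medians of -0.13, 0.01, 0.16, 0.12 and -0.17. These counts of 0 stand beside shares over all genes of 7.36% called higher and 0.305% called lower. A call that was not made does not show that these genes were equal.

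Few genes were called lower, and the changes were small. The 12 lowest with a mean of at least 1 CPM had log2 fold changes from -0.97 for SLCO1C1, a transporter of thyroid hormone, to -0.71 for OR8B8. SLCO1C1 lost its call in 14 alternatives, among them limma-voom, no animal block, the lane as a factor and leaving out F1015, F1016, F1017, F1019, F1021, M1008, M1010 or M1011. STK32B, a kinase, ranged from 1.33 to 717 CPM (median 88.9) against 67.4 to 1018 CPM (median 253), at -0.77 ± 0.23 (edgeR adjusted p = 0.0107). SLC22A11, a transporter of organic anions, had 1.43 to 198 CPM (median 119) against 60.7 to 496 CPM (median 169), at -0.75 ± 0.18 (edgeR adjusted p = 0.00152). GDNF, a neurotrophic factor, and COL27A1, a fibrillar collagen, were lower by -0.72 ± 0.13 and -0.72 ± 0.17 (edgeR adjusted p = 3.6e-05 and 0.00127). The others were TTBK1, C21orf88, CRIP3, FLJ26850, LOC100652888 and OR8B3, a near copy of OR8B8. Without F1016 at week -3, 28 genes were called lower, and without the week term 366 were.

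WHV reads were fewer in the MYH2-high biopsies. WHV is counted apart from the woodchuck genes, and within each animal its log2 CPM was averaged over biopsies of a kind. The test had no week term, so differences between weeks are mixed with those between the classes. The mean over 12 animals was 14.14 in MYH2-high and 14.52 in MYH2-low biopsies, a difference of -0.38 ± 0.55 (SD, n = 12). It was lower in 10 of 12 animals (exact sign-flip permutation test over animals, two-sided, p = 0.0171, adjusted over 3 measures 0.0256). The differences ran from -1.81 in F1016 to 0.32 in M1009, and without F1016 at week -3 the mean was -0.25 (exact permutation p = 0.0186). Relative to the reads on the 20 secreted hepatocyte genes, a scale added after seeing the data, the difference was -0.10 (exact permutation p = 0.246). The secreted hepatocyte genes took a median of 13.1% of reads in MYH2-high and 13.9% in MYH2-low biopsies.

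MYH2-high biopsies also had more genes with a read, by 138 ± 156 (SD, n = 12) within animals, and higher in 9 of 12 (exact permutation p = 0.0117, adjusted 0.0256). That count takes in genes of muscle, some of which had no read in most MYH2-low biopsies (DHRS7C in 34 of 43). Part of the difference thus follows from the choice by MYH2, and how much was not tested. Like the WHV test, these comparisons within animals had no week term. Depth did not differ beyond the spread of the animals. Reads on genes differed by -0.04 ± 0.45 on the log2 scale (SD, n = 12, exact permutation p = 0.731, adjusted 0.731), and the biopsies had 12962032 to 84805845 reads on genes.

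The wIFN-α biopsies, which the choice of placebo biopsies did not use, were split by the same MYH2 limits into 22 high biopsies, from 9 of 11 animals, and 46 low ones. Of the 22 high ones, 7 were of week -3, before dosing, and 2 of week 19, after it. The week -3 biopsy of F1018 in the high group was like that of F1016, with ALB at 30.7 CPM, WHV at 34.2 CPM, secreted hepatocyte genes at 0.0910% and muscle genes at 23.6% of reads, and without it 872 genes were called in either direction. Here 982 of 15295 genes were called higher (6.42%) and 27 lower (0.177%). Of the higher calls 863 were shared, 77.8% of the placebo list and 87.9% of the wIFN-α list. Of the 1109 genes called higher in placebo biopsies 1082 were tested, and 1078 of these had a log2 fold change above 0. Only 5 lower calls were shared, while 43 of the 45 placebo lower calls that were tested were below 0. The median log2 fold change of all genes in the wIFN-α arm was -0.05.

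**Figure D5:**
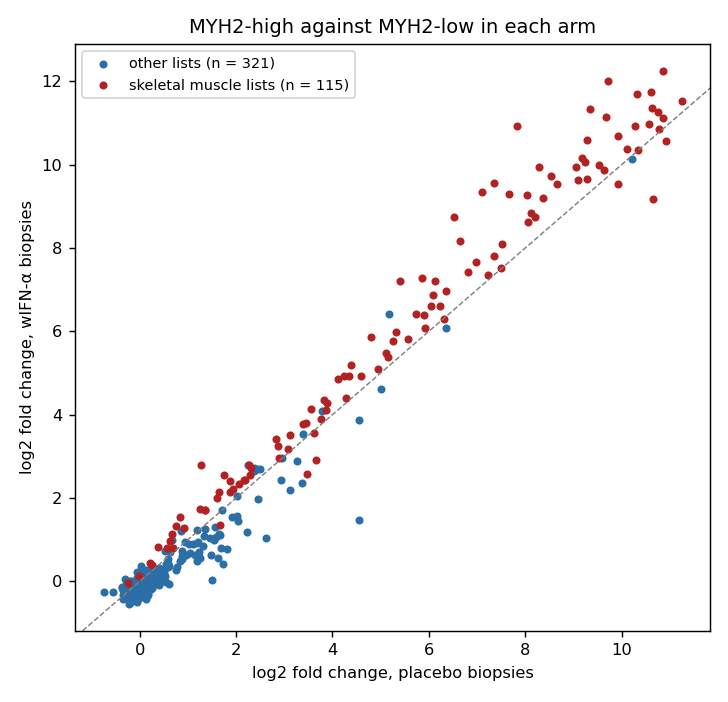
Log2 fold change of MYH2-high against MYH2-low biopsies in the wIFN-α arm against that in the placebo arm; points are the 115 skeletal muscle list genes and 321 other list genes tested in both arms, and the dashed line marks equal change. Skeletal muscle genes high in the placebo arm are high in the wIFN-α arm. The skin genes reach 4.54 in the placebo arm and 1.47 in the wIFN-α arm.

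Since the same MYH2 limits set the wIFN-α classes, higher muscle genes there follow from the choice and are given as a description. That includes muscle genes on no list, so the shared calls over all genes are a description too. All 108 skeletal muscle genes called in the placebo arm were called in the wIFN-α arm too, where 110 of 115 were. Of the fibroblast and matrix genes 19 of 23 were called in both, of the fat cell genes 5 of 11, and of the muscle forms of enzymes 16 of 17. Skin genes (0 of 9), mesothelial genes (0 of 6) and erythrocyte genes (0 of 6) were not called in the wIFN-α arm, and 2 of 16 immediate early genes were. Over all genes tested in that arm, 6.42% were called higher and 0.177% lower. A single wIFN-α biopsy had KRT1 at 10 CPM or more. Whether the effect of the class differed between the arms was tested for 15667 genes, and 0 passed an adjusted p of 0.05 in edgeR (0%, smallest adjusted p 0.518), while 506 had an unadjusted p under 0.05. With DESeq2 2 genes passed and with limma-voom 1. The 4 lists with fewer calls were thus not shown to differ between the arms.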

How the data were processed

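The authors sequenced poly(A) RNA of liver biopsies in read pairs. Bowtie2 placed the pairs on an assembled woodchuck transcriptome, and SAMtools gave the counts. For every run the authors deposited expected counts per gene symbol, which are not normalized. The authors also deposited RPKM values, which served only to recover transcript lengths. The reference was the study's revised transcriptome assembly, and no genome build is given in the sources used here. The virus entry was kept out of gene tests. Genes are reported by the files' symbols.

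The 203 runs were summed to 164 biopsies and counts were rounded. Classes used MYH2 CPM of all reads of the file. Other levels are CPM of reads on genes, not scaled by TMM. The members and the gene lists were chosen with earlier results of these data known. M1004, which the study set aside, was left out. Tests used edgeR 4.0.16 in R 4.3.3 (TMM, filterByExpr, quasi-likelihood, week as factor, animal as fixed block). A standard error is the log2 fold change divided by the square root of F. The fit was tested on simulated data. Alternatives used DESeq2 1.42.0 and limma 3.58.1. Tables and exact tests used Python 3.11.15 with scipy 1.17.1.

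Biopsies of 1 animal carry the same animal number and come from the same animal. Their deviations from the mean of class and week had a median correlation of 0.323 (214 pairs, 193 above 0.1), against -0.03 between animals (2636 pairs), so the animal was kept as a block. Named genes were the markers, for each list the 2 highest and 2 lowest log2 fold changes and the 2 highest mean levels, the isoform and fibre lists, and the 12 highest and 12 lowest called genes of at least 1 CPM beyond the skeletal muscle lists. Results for some genes are not reported here.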

Additional observations from a re-analysis of the deposited data

Results flagged for a closer look

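In 12 sets of 4 to 10 placebo biopsies, of the same class and week or between the limits, the highest and lowest muscle read share, WHV and ALB were each compared with the nearest other biopsy. Of these 36 checks, chance flags about 1 in 20. The week -3 biopsy of F1016 lay far below the other 3 MYH2-high biopsies of that week in WHV, with 86.4 CPM where the next was 25990, and in ALB, with 93.8 CPM where the next was 58270. At week 3, ALB in F1021 was the lowest of 9 MYH2-high biopsies, at 8539 CPM against 30320 for the next. Among the 6 MYH2-low biopsies of week 15, M1005 had the lowest skeletal muscle share, 0.209% of reads against 0.246%, a small gap on an otherwise narrow range.

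Outside the comparisons, wIFN-α animal M1004 had 1426 CPM of MYH2 at week 0 and 2687 CPM at week 11, above every MYH2-low placebo biopsy, while its other 5 biopsies had 0.299 to 1.24 CPM. The 8 biopsies taken at other times had 0.0355 to 0.799 CPM. By their labels, those of F1017, F1020, F1023, F1024, M1007 and M1010 came from animals that died, were found dead or were euthanized.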

How the results depend on the processing

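The count of genes called higher in MYH2-high placebo biopsies, 1109, stayed within 1.5 times under the other scalings, tools, MYH2 limits and covariates tried, at 928 to 1501, and fell to 733 with a fold change above 2. Leaving out each animal in turn gave 934 to 1237. The count of genes called lower, 46, was less stable. It was 17 with library size scaling, 77 without a filter, 86 with limma-voom, 366 without the week term, 72 with the lane as a factor and 1 with a fold change above 2. It was 28 without F1016 at week -3 and 26 without that biopsy and F1021 at week 3, which were alternatives added after seeing the data. Leaving out each animal in turn gave 24 to 61 lower calls, with 30 without F1015, 24 without F1016 and 26 without F1021. In the wIFN-α arm leaving out each of the 9 animals with a MYH2-high biopsy gave 819 to 1145 calls. The difference between the arms passed for 2 genes with DESeq2, 1 with limma-voom, 1 without the week term and 1 without F1018 at week -3, added after seeing the data. Leaving out animals was not run for that difference. The WHV difference was -0.44 to -0.25 without each animal in turn, and -0.10 relative to hepatocyte reads. The causes of these shifts were not tested.

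Without the animal block, 1082 genes were called higher and 56 lower in the placebo arm, 1065 genes were called in the wIFN-α arm, and 1 differed between the arms.

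Single genes that turned direction were DSG1, DSC1 and CDSN, at -0.46, -0.043 and -0.11 on the log2 scale without biopsies with KRT1 at 10 CPM or more (added after seeing the data), and ELANE, at -0.73 without the week term. DSG1, DSC1 and CDSN are on the skin list, as is KRT1, which picked the biopsies left out.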
